A study of Rattus norvegicus with 93 samples.

Results

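Voltage-gated sodium and calcium channels and hyperpolarization-activated cyclic nucleotide-gated (HCN) channels set how a neuron fires. The rat genes that encode their pore-forming and auxiliary subunits were followed here in the rostromedial tegmental nucleus (RMTg). Members were chosen by symbol alone: every row of the deposited table whose symbol is Scn with a number and a or b, starts with Cacna, Cacnb or Cacng, or is Hcn with a number. The rule found 44 genes among 38354. They comprise pore and beta subunit genes of sodium channels, 10 calcium channel pore genes with 4 alpha2delta and 4 beta subunit genes, 8 Cacng genes, and HCN genes. Polyadenylated RNA of the RMTg came from outbred laboratory rats in 1 group, for use in genetic analyses. The labels give no treatment, age, sex, genotype or strain, and they do not say how the nucleus was dissected. Of 93 labelled samples, 92 had a column, and the 49 in which Nif3l1 took under 20% and LOC120093067 plus Zfp532 under 10% of the counts were used. The labels give each sample an identifier of its own but do not say whether animals shared a litter, a batch or a day, so p-values measure the spread between these libraries.

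Sodium channels open on depolarization and carry the upstroke of the action potential. Their beta subunits change gating and anchor the pore. Calcium channels couple firing to transmitter release, to bursting and to gene regulation, with alpha2delta and beta subunits that bring the pore to the membrane. HCN channels open on hyperpolarization, are tuned by cyclic nucleotides and help to set resting potential and rhythmic firing. The RMTg is an inhibitory brainstem nucleus that projects to midbrain dopamine neurons, which fire as pacemakers.

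The summed estimated count of a library lay between 9.55 M and 50.2 M (M stands for 1000000), the median library having 19.2 M, and 23690 to 28273 genes were above 0. Over all 1176 pairs of libraries the chi-square per gene was at least 7.38, so none was a copy of another. All 10 genes of an RMTg inhibitory list passed the expression filter, among them Gad1 (GABA synthesis) at 234 to 567 counts per 1000000 (CPM). Summed levels of the list ranged from 714 to 1195 CPM. Markers of other cells were also present: the 10 dopaminergic markers summed to 396 to 2570 CPM, the 4 serotonergic markers to 156 to 523 and the 8 oligodendrocyte markers to 33121 to 78058. Of 4 cerebellar markers, Pcp2, Gabra6 and Cbln3 had medians of 0, and Zic1 was above 0 in every library, at 0.892 to 4.19 CPM (median 2.38). In a dissected tissue, fewer cells of a type and less RNA per cell cannot be told apart.

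Of the 44 channel genes, 38 passed the filter, a log2(CPM + 1) of 1 or more in 20% or more of libraries. The 6 that did not are Scn10a and Scn11a, known from pain-sensing neurons, Cacna1s and Cacng1, known from skeletal muscle, Cacna1f, known from the retina, and Cacng6. Scn11a was at 0 in 40 of the 49 libraries and reached at most 0.362 CPM. Cacng1 was at 0 in 36 libraries, Scn10a in 20, Cacna1s and Cacng6 in 13 each and Cacna1f in 8, and the highest value among them was 0.820 CPM, for Cacna1f. These 6 genes enter none of the counts below. Transcript length was not removed from the values, so a level is compared only between libraries, never between genes.

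**Figure D1:**
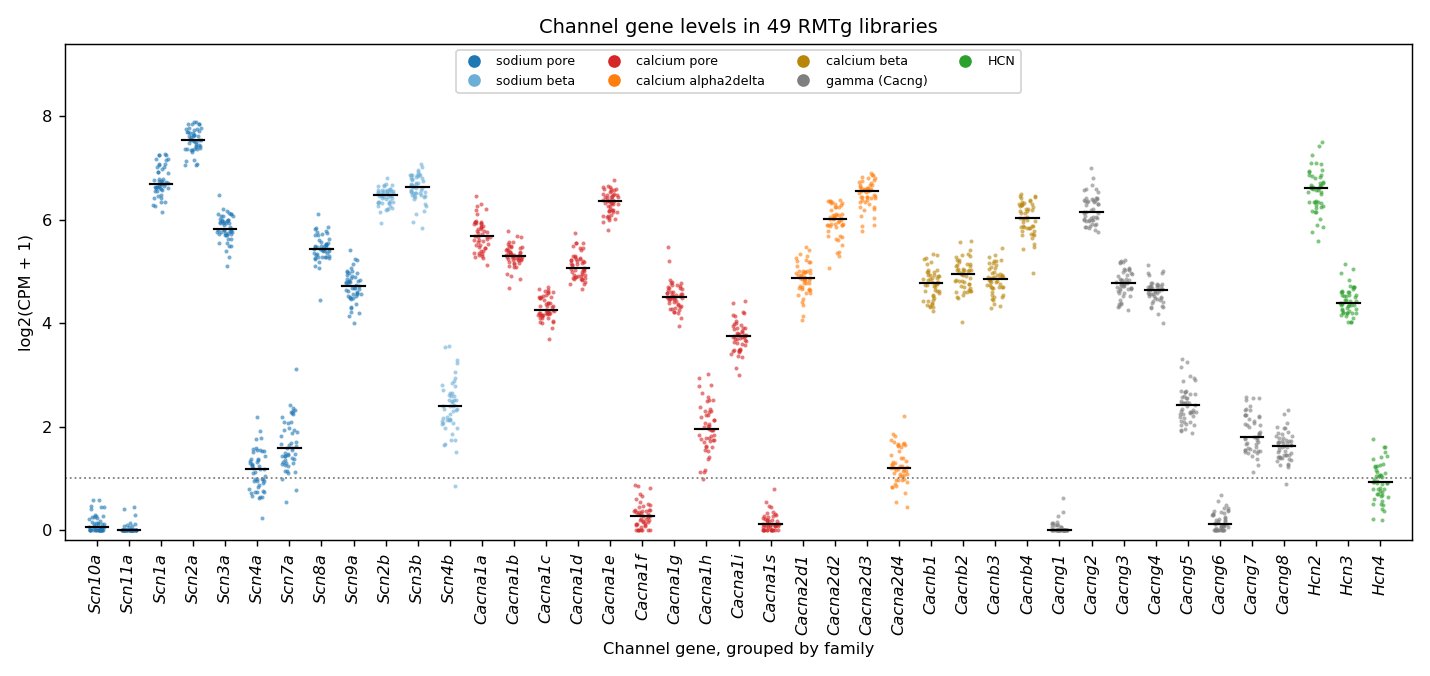
Levels of 41 channel genes in each of 49 libraries as log2(CPM + 1), with families in colour, black bars for the median and a dotted line at the filter of 1. The 6 genes that did not pass stay under the line in every library, and heights of different genes are not comparable because transcript length was not removed.

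Among the sodium channel pore genes, Scn2a, Scn1a and Scn8a are the main neuronal pores of the adult brain. Scn2a ranged from 132 to 237 CPM with a median of 186, and Scn1a from 70.01 to 153 with a median of 102. Scn8a, which is concentrated at the axon initial segment and the nodes of Ranvier, ranged from 20.7 to 68.3 CPM with a median of 42.4. Scn3a, best known from the developing brain, ranged from 33.4 to 88.5 CPM, and Scn9a, known from sensory and autonomic neurons, from 15.1 to 41.9. The skeletal muscle channel Scn4a (0.169 to 3.54 CPM) and Scn7a (0.450 to 7.64), which encodes a sodium-sensing relative, had libraries under the filter level.

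The beta subunit genes Scn2b and Scn4b encode subunits that bind the pore covalently, while that of Scn3b binds it without such a bond. Scn4b supplies the open-channel blocker of resurgent sodium current, which supports fast repetitive firing. Scn3b ranged from 56.2 to 134 CPM (median 98.6) and Scn2b from 60.1 to 111 (median 88.2). Scn4b ranged from 0.798 to 10.8 CPM with a median of 4.27, a 13.5-fold range against 1.84-fold for Scn2b. The table places these neighbours on chromosome 8 at 54322383 (Scn2b) and 54343873 (Scn4b), 21.5 kb apart. The SD of their log2 levels was 0.17 for Scn2b and 0.51 for Scn4b, so neighbouring members differed in how much they varied between libraries.

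The promoters of Scn2b, Scn4b and Scn8a are shown because the first pair are neighbours of unlike spread and because Scn4b and Scn8a lead the results on marker scores. Each window holds 250 bases before and 50 after a transcript start, from RefSeq on GRCr8, 5′ to 3′ on the gene's strand. Capitals mark GC boxes, the letters GGGCGG on either strand. The windows lie at chr8:54322133-54322432 (Scn2b, plus strand), chr8:54343623-54343922 (Scn4b, plus strand) and chr7:133860977-133861276 (Scn8a, plus strand).
Scn2b: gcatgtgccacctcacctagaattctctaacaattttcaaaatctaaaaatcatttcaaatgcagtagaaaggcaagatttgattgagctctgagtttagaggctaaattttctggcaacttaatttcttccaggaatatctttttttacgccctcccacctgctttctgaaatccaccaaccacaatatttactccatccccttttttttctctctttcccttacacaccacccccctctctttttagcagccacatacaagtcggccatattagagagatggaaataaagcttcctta
Scn4b: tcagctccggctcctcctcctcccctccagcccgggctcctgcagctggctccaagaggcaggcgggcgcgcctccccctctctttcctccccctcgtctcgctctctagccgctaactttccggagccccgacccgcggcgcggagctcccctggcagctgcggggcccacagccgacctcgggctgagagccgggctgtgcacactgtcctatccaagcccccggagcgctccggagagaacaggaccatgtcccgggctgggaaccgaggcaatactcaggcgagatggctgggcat
Scn8a: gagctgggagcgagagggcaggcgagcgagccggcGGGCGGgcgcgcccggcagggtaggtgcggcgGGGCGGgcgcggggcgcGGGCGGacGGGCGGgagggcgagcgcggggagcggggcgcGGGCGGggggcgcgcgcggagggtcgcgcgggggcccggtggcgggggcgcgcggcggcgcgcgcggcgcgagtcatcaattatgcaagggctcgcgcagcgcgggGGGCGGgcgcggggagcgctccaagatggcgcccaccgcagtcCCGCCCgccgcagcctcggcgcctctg
The Scn2b window is 39% G or C with 2 CpG dinucleotides, the Scn4b window 70% with 24 and the Scn8a window 84.7% with 60. The Scn8a window holds 7 GC boxes, and the other windows hold none of these letters.

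The calcium channel pore genes fall into high-voltage and low-voltage types. Cacna1a, the P/Q-type pore of fast transmitter release, ranged from 33.95 to 86.6 CPM (median 50.2). Cacna1b, the N-type pore at many terminals, ranged from 24.7 to 54.01, and Cacna1e, the R-type pore, from 54.5 to 108. The L-type pore genes of brain, Cacna1c and Cacna1d, ranged from 11.9 to 25.1 and from 24.2 to 52.5 CPM. The T-type pores, which open near rest and support bursts, were represented by Cacna1g at 14.5 to 43.4 CPM, Cacna1i at 7.01 to 20.4 and Cacna1h at 0.977 to 7.14. Cacna1h had the widest range of the calcium channel pore genes past the filter, at 7.30-fold. Its lowest level was in library 62 and its lowest count in any library was 12.3, so counting error enters this range.

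Among the auxiliary genes, Cacna2d1 and Cacna2d2, which encode the alpha2delta subunits bound by gabapentin, ranged from 15.7 to 43.3 and from 32.6 to 82.8 CPM. Cacna2d3 ranged from 54.005 to 119 and Cacna2d4 from 0.359 to 3.62. Cytoplasmic beta subunit genes ranged from 17.7 to 39.6 CPM (Cacnb1), 15.3 to 47.4 (Cacnb2), 18.6 to 42.7 (Cacnb3) and 30.5 to 88.99 (Cacnb4). The products of Cacng2, Cacng3, Cacng4, Cacng5, Cacng7 and Cacng8 are best known as auxiliary proteins of AMPA-type glutamate receptors. Cacng2 ranged from 53.1 to 128 CPM, Cacng3 from 18.01 to 36.2, Cacng4 from 15.1 to 33.7, Cacng5 from 2.68 to 8.94, Cacng7 from 1.17 to 4.95 and Cacng8 from 0.855 to 3.96.

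Of the HCN genes, Hcn2 and Hcn4 encode channels that respond strongly to cyclic AMP, and Hcn4 is the main pacemaker channel of the heart. Hcn2 ranged from 46.9 to 180 CPM with a median of 96.4, a 3.84-fold range. Hcn3 ranged from 15.2 to 34.4 CPM. Hcn4 ranged from 0.144 to 2.39, and it reached the filter level in 42.9% of libraries. The promoter of Hcn2 is shown because it moved with Scn4b and Scn8a on a marker score. It comes from RefSeq on GRCr8 at chr7:10639408-10639707 (minus strand) and is 72.7% G or C, with 3 GC boxes in capitals.
Hcn2: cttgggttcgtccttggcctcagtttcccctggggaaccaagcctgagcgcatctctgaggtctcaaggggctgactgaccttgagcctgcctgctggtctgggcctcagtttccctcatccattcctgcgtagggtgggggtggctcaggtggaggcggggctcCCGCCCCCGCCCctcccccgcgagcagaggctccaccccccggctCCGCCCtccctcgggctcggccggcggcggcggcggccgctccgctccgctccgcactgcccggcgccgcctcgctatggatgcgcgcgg

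Promoter windows were found for 28 of the 44 genes. The 6 motifs searched, on both strands, were chosen after the data had been seen. GC boxes (GGGCGG) were in 15 of the 28 windows (53.6%), against 33.1% of all 33469 promoters in the same table. E-boxes (CANNTG) were in 21 (75%, against 72.1%), the short form TGACG of the cyclic AMP response element in 4 (14.3%, against 21.2%) and TATAAA in 2 (7.14%, against 14.2%). The partial sites GGACAG and AGCACC of the neuronal silencer element RE1 were in 5 and 3 windows (17.9% and 10.7%, against 21.7% and 16.3%). The median share of G or C was 62.3% in the members' windows and 51.7% in all promoters. A match is a stretch of letters and not a known binding site.

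How much a gene varied between libraries was described by the SD of its log2(CPM + 1) less the SD that the trend over all genes past the filter gives at its mean level. Of the 38 channel genes, 29 lay above the median of all 18749 genes on this measure. The most variable were Scn4b and Hcn2, both at the 93.3rd percentile, then Scn7a (90.7), Cacna1h (89.3) and Cacnb4 (83.1). Cacng8 (7.60) and Scn2b (11.5) lay at the other end. Families held members of unlike spread: the SD of log2 levels was 0.22 for Scn2a and 0.49 for Scn7a among sodium pore genes, and 0.26 for Hcn3 and 0.41 for Hcn2 among HCN genes.

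**Figure D2:**
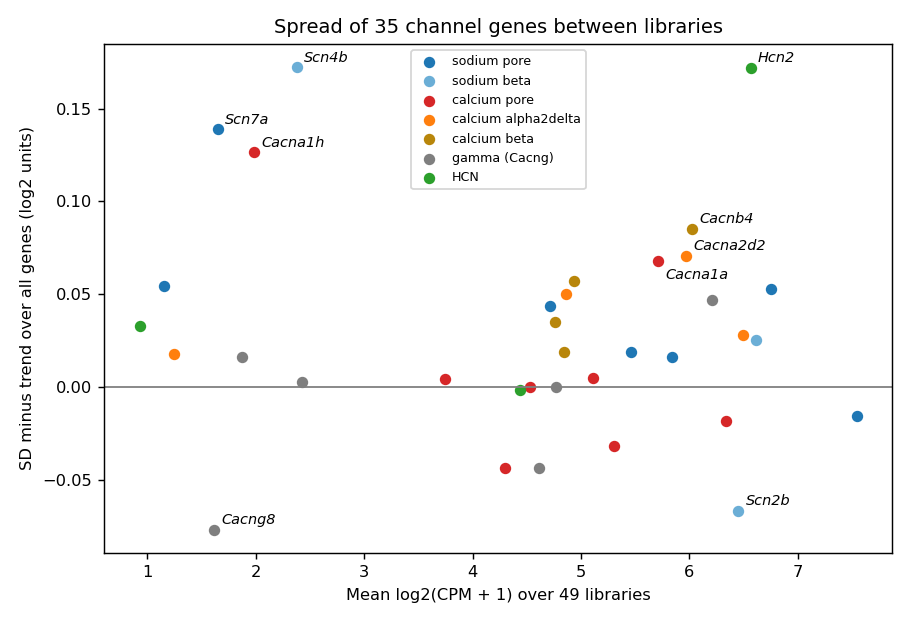
Spread of 35 channel genes past the filter: SD of log2(CPM + 1) over 49 libraries minus the trend over all genes (vertical axis) against mean level (horizontal axis), coloured by family. Scn4b and Hcn2 lie highest and Cacng8 and Scn2b lowest.

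To ask which channel genes move with the cellular makeup or state of the sample, each gene was fitted with limma against scores of marker genes over the 49 libraries. A score is the mean z-scored log2 level of its list, scaled to an SD of 1, and a slope is the change in log2(CPM + 1) per SD of the score. Adjusted p-values are Benjamini-Hochberg values over all genes tested, and a gene is said to rise or fall with a score where this value is under 0.05.

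The neurofilament score was made of Nefl, Nefm, Nefh, Ina and Kif5a, which build and supply the axonal skeleton of large projecting neurons. With it 12 of 38 channel genes rose and 0 fell, which is 31.6%. Of all 18744 genes tested, 21% were called, 14.8% rising and 6.13% falling. The median slope was 0.07 over the channel genes and 0.02 over all genes. The genes that rose include the sodium channel genes Scn4b, Scn8a, Scn1a and Scn2b, the calcium channel pores Cacna1i, Cacna1a, Cacna1e, Cacna1c and Cacna1d, Cacng8, and Hcn2.

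Scn4b was at 0.798 CPM in the library of lowest neurofilament score (library 62) and at 6.72 CPM in that of highest score (library 45). Its slope was 0.30 ± 0.06 (SE; limma adjusted p = 0.000624), and it was positive in all 5 identifier series, from 0.10 to 0.51. Scn8a was at 20.7 and 51.5 CPM in the same libraries, with a slope of 0.18 ± 0.03 (limma adjusted p = 6.4e-05); within series the slope was negative only in series E, at -0.07. Hcn2 was at 71.2 and 180 CPM, with a slope of 0.20 ± 0.05 (limma adjusted p = 0.00386); series D alone had a negative slope, at -0.07. Library 62 is the lowest library for 9 of the 38 channel genes, and without it these 3 genes were still called. The count over all genes depended more on that library. Without it 11 members (28.9%) and 9.31% of all genes were called, 1746 in place of 3929. Cacng8 (limma adjusted p = 0.193), Scn2b (0.112) and Cacna1d (0.0698) then lost their call, and Cacng2 and Hcn4 gained one. Cacng8 also lost it without library 45 (0.0801) or 63 (0.0698), and Cacna1d without library 63 (0.0713). The slopes of Cacna1i, Cacna1a, Cacna1e, Cacna1c, Cacng8, Scn1a, Cacna1d and Scn2b ran from 0.08 (Scn2b) to 0.16 (Cacna1i). Members that did not pass with all 49 libraries include Hcn4 (slope 0.11), Scn2a (0.07) and Cacna1g (0.01).

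Partner genes of the channels were taken from fixed lists. Of 15 sodium channel partners, 6 rose with the neurofilament score and 1 fell. Ank3 (0.10), which encodes the ankyrin that organizes the axon initial segment, Sptbn4 (0.10), the spectrin of the same site, and Nfasc (0.06), an adhesion protein there, were among those that rose. Fgf11 rose (0.17) and Fgf13 fell (-0.26), both members of the intracellular fibroblast growth factor homologous factors that bind sodium channels. Of 16 calcium channel partners 6 rose and 0 fell, with slopes of 0.28 for the ryanodine receptor gene Ryr1, 0.19 for Ryr2 and 0.18 for the calcium-binding protein gene Cabp1. Of 8 HCN partners, Pex5l (0.12), whose product binds the tail of HCN channels, rose and Vapa (-0.10) fell.

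The neurofilament score moved with the balance of 12 long neuronal over 12 respiratory chain genes, a measure of RNA state (r = 0.54 over 49 libraries, a description). With size factors by median of ratios in place of library totals 6 of the 12 genes were called, and over all 18720 genes then tested 841 rose and 1062 fell, in place of 2780 and 1149. With that balance as a covariate 5 of the 12 rose, and Scn3a (-0.14) and Scn9a (-0.14) fell. Over all genes 395 then rose and 474 fell. Scn4b, Scn8a, Hcn2 and Cacna1i were called under all 8 other settings tried (pseudocount, filter, scaling, covariates and left-out libraries).

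The dopaminergic score was made of 10 markers of midbrain dopamine neurons, such as Th (tyrosine hydroxylase, at 46.5 to 1067 CPM) and Slc6a3 (the dopamine transporter, at 5.52 to 124). With it 3 of 38 channel genes rose and 3 fell, against 9.09% of all 18739 genes called, 3.72% rising and 5.36% falling. Cacng5, Scn3b and Cacnb3 rose, and Scn8a, Scn1a and Scn4b fell. The median slope was -0.006 over the channel genes and -0.004 over all genes. Without library 45, 5 members were called and 4.04% of all genes, 757 in place of 1703.

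Scn3b was at 75.9 CPM in the library of lowest dopaminergic score and at 118 CPM in that of highest score (library 40), with a slope of 0.14 ± 0.03 (SE; limma adjusted p = 0.00665). Cacnb3 was at 23.2 and 33.1 CPM, with a slope of 0.13 ± 0.03 (limma adjusted p = 0.0142). Both slopes were positive in all 5 series. Scn8a was at 56.2 and 32.6 CPM, and its slope was -0.15 ± 0.03 (limma adjusted p = 0.00225), negative in all 5 series. Scn1a fell with a slope of -0.15 ± 0.04 (limma adjusted p = 0.00814), and Scn4b with one of -0.20 ± 0.07 (limma adjusted p = 0.0492), which was above 0.05 without library 45 (0.0942) or 62 (0.0911). Xist and Ddx3y are transcribed from the inactive X and from the Y. With their levels as covariates, 1 of the 6 genes was called, Scn8a. Over all genes 211 then rose and 58 fell, in place of 698 and 1005. Among partner genes, Fgf13 rose with this score (0.34) and Ank3, Ank2 and Fgf11 fell, as did Pex5l (-0.13), Ryr2 (-0.15) and Rims2 (-0.09). Of 15 sodium channel partners 1 rose and 3 fell, and of 16 calcium channel partners 0 rose and 2 fell. Of 8 HCN partners 0 rose and 1 fell, against 3.72% of all genes rising and 5.36% falling.

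**Figure D3:**
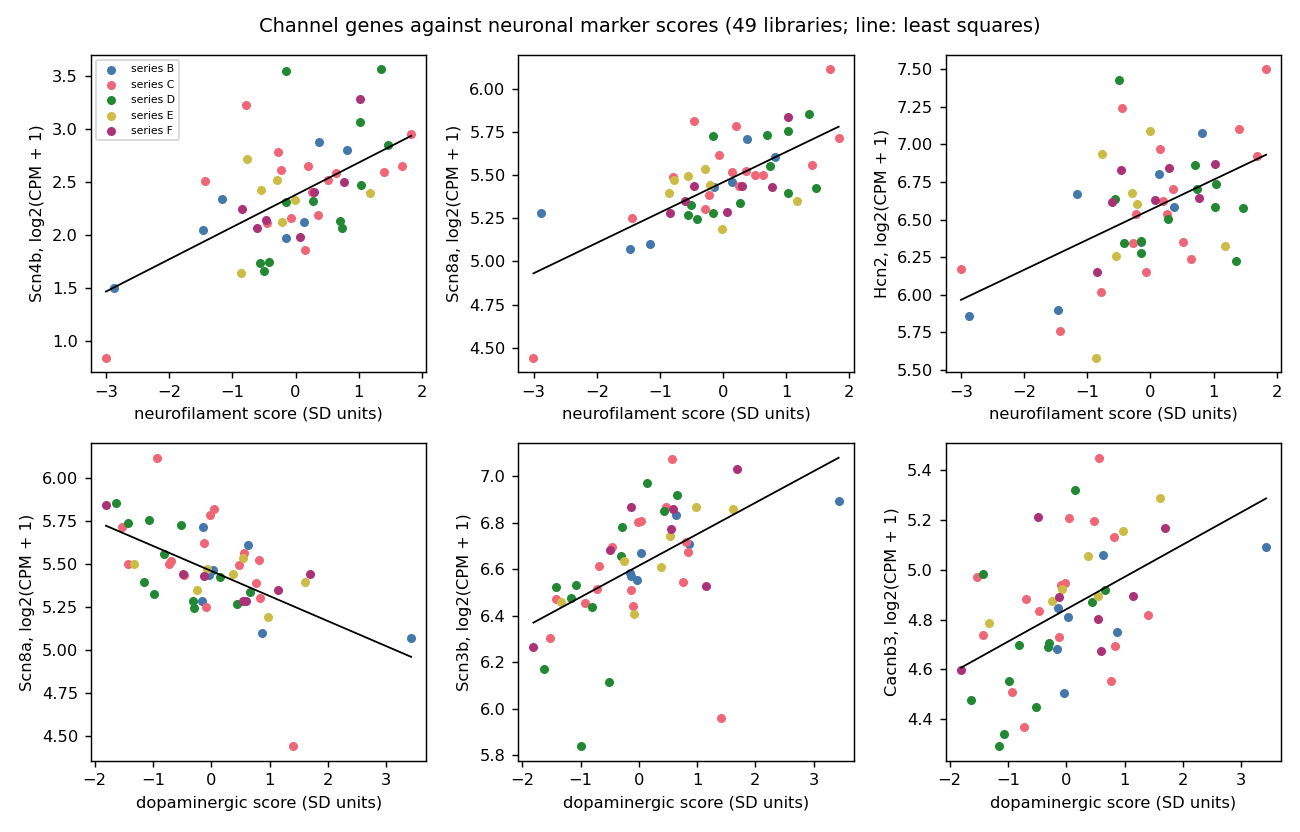
Log2(CPM + 1) of Scn4b, Scn8a and Hcn2 against the neurofilament score (top) and of Scn8a, Scn3b and Cacnb3 against the dopaminergic score (bottom) in 49 libraries, coloured by identifier series, with least-squares lines. Scn8a goes up with the neurofilament score and down with the dopaminergic score, and library 40 lies alone at the right of the dopaminergic axis, at 3.43 SD.

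The glycinergic score was made of Slc6a5, Glra1 and Slc6a9, the neuronal glycine transporter, a glycine receptor subunit and the glial glycine transporter. It is therefore not a measure of glycine neurons alone. Slc6a5 ranged from 0.290 to 4.93 CPM (median 1.51), with libraries under the filter level. With it 6 of 38 channel genes rose and 2 fell, against 12.3% of all 18746 genes called, 5.52% rising and 6.74% falling. Those that rose include Scn4b and Hcn2 (slopes 0.22 each) and Cacng2, Cacna1a and Scn8a (0.12 to 0.13), and those that fell are Scn3a and Cacna2d3 (-0.11 each). Library 45 lies at 3.78 SD on this score. Without it 0 of the 38 genes were called, with limma adjusted p-values of 0.0857 (Scn8a) to 0.322 (Scn3a) for the same 8, and over all genes 26 rose and 8 fell in place of 1035 and 1263. The slopes kept their signs without that library, at 0.26 for Scn4b and 0.20 for Hcn2. With library 35, the lowest on this score, also left out, 3 members were called, Hcn2, Scn8a and Cacna1d, and 407 genes rose and 274 fell.

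The neurofilament, dopaminergic and glycinergic scores were related to each other, so the slopes on them are not independent. Pearson's r between the neurofilament and glycinergic scores was 0.51 and Spearman's rho 0.53 (two-sided permutation tests, adjusted p over 3 pairs 0.00048 and 0.00024), and r was 0.50 once the 2 most extreme libraries on the first score were left out. Between the neurofilament and dopaminergic scores r was -0.52 and rho -0.52 (permutation, adjusted p 0.00048 and 0.00024), and r was -0.57 without 2 such libraries. Between the glycinergic and dopaminergic scores r was -0.44 and rho -0.39 (permutation, adjusted p 0.00217 and 0.00583), and r was -0.43 without 2 such libraries. Within the 5 series r ran from 0.26 to 0.69 for the first pair, from -0.82 to -0.19 for the second and from -0.68 to 0.09 for the third. These tests were chosen after the members had been seen to move with the scores.

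With the score of 8 oligodendrocyte markers, 2 channel genes rose and 3 fell of 38, against 13.5% of all 18741 genes called, 8.78% rising and 4.73% falling. The share of members called, 13.2%, is near that background. Scn3b (0.11) and Cacna2d3 (0.10) rose, and Cacna2d1 (-0.14), Scn1a (-0.13) and Cacna2d2 (-0.13) fell. This score moved with the log10 library total (r = 0.47 over 49 libraries, a description). With that total as a covariate 2 of the 5 genes were called, Scn3b and Cacna2d2, and over all genes 1336 rose and 736 fell. With size factors by median of ratios 0 rose and 4 fell, and over all genes 583 rose and 478 fell. Without library 63 also 0 rose and 4 fell, and over all genes 1504 rose and 706 fell. Scn3b (limma adjusted p = 0.052) and Cacna2d3 (0.063) then lost their call, and Cacna1a (-0.12) gained one.

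With the RMTg inhibitory score, 0 of 38 channel genes were called by limma, against 0.0747% of all 18739 genes (0.0640% rising and 0.0107% falling). An unadjusted p under 0.05 was found for 12 of the 38 and for 10.5% of all genes. Without library 63, 1 member and 71 genes were called, in place of 0 and 14. Slopes ran from -0.07 to 0.15. With the score of 4 serotonergic markers 0 were called, against 0.0160% of all 18745 genes, and 2 had an unadjusted p under 0.05 in limma, against 8.96% of all genes. The immediate early score, made of 9 activity-induced genes such as Fos and Egr1, differs between identifier series and was fitted with series as covariate. With it 0 channel genes were called by limma, against 0.267% of all 18740 genes (0.144% rising and 0.123% falling), and 8 had an unadjusted p under 0.05, against 9.4% of all genes. The SEs of these slopes ran from 0.09 to 0.27, against 0.02 to 0.07 for the neurofilament score. The calcium channel partner Rrad, a small GTPase that restrains calcium channels, rose with it (slope 0.84 ± 0.13, limma adjusted p = 0.000114).

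RNA state was followed by the mean z of 12 long neuronal genes minus that of 12 respiratory chain genes. With it 9 of 38 channel genes rose (23.7%) and 0 fell, against 28% of all 18725 genes called, 20.5% rising and 7.51% falling. The count of members lies near this background. Scn3b, Scn9a, Cacng8, Cacna1e, Cacna2d3, Cacna1c, Cacna1b and Cacna1d rose, with slopes of 0.09 to 0.12. With size factors by median of ratios 1 of the 9 was called, and over all genes 1526 rose and 2053 fell, in place of 3841 and 1407. Libraries 63 (3.30 SD) and 71 (-3.51 SD) lie farthest out on this score. Without library 63, 9 members rose and 1 fell, and 4768 of all genes were called in place of 5248. Cacng8 (limma adjusted p = 0.136), Cacna2d3 (0.0783) and Cacna1d (0.0952) lost their call, while Cacnb4, Scn2a and Scn1a rose and Scn4a fell. Without both libraries 7 members rose and 0 fell, and over all genes 3398 rose and 933 fell.

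**Figure D4:**
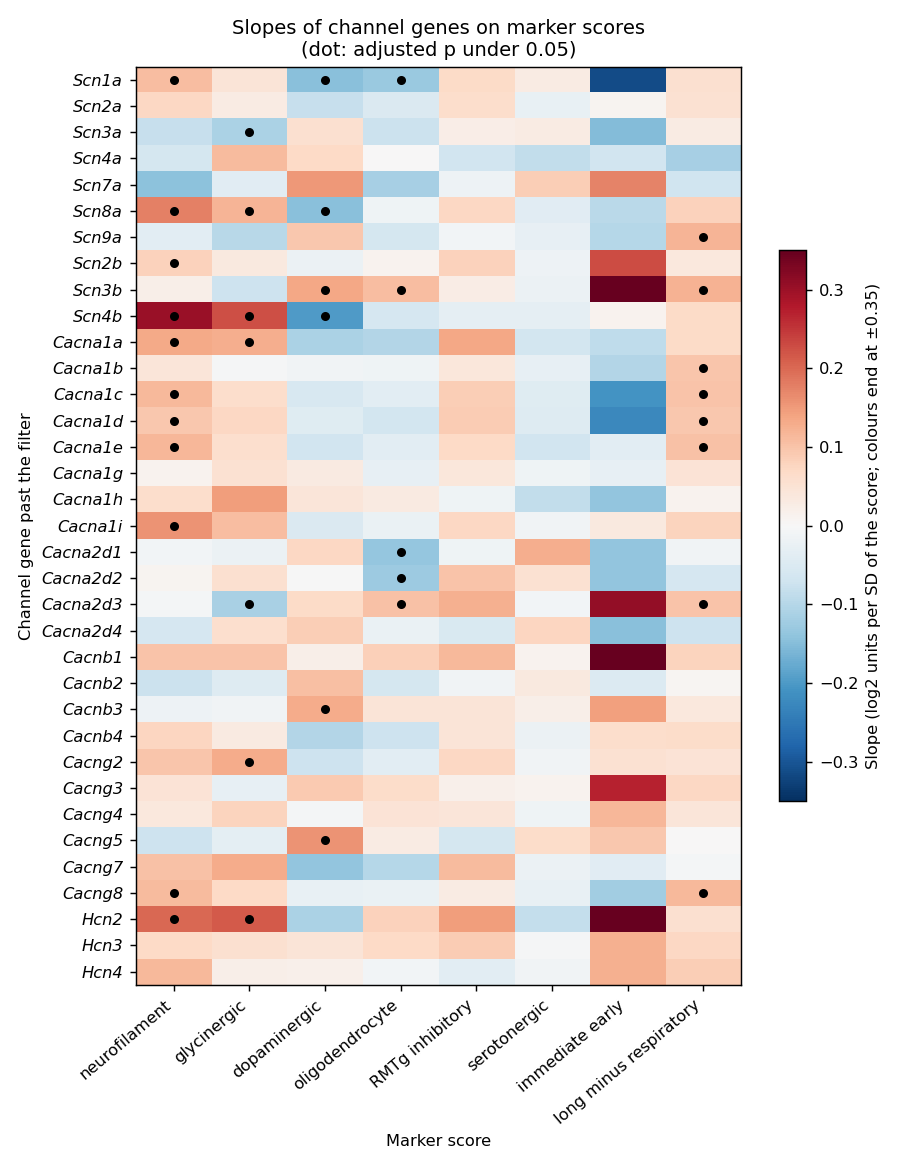
Slopes of 35 channel genes (rows) on 8 marker scores (columns) in log2 units per SD of the score, with red above and blue below 0 and a dot where the limma adjusted p was under 0.05. The neurofilament column holds 11 dots, all on positive slopes, and the immediate early column, whose SEs are larger, has strong colours and no dot.

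Between the 5 identifier series, which held 7, 16, 12, 7 and 7 of the 49 libraries, 0 of 38 channel genes differed by limma's F test, against 1.71% of all 18749 genes. An unadjusted p under 0.05 was found for 4 of the 38 and for 14.8% of all genes, and the smallest adjusted p was 0.113, for Cacnb4. On the level of Xist, 0 channel genes were called by limma, against 0.0907% of all 18748 genes, and 1 had an unadjusted p under 0.05, Cacng8 (0.0307). With series as a covariate it was at 0.153, and the 1 gene under 0.05 was Scn3a (0.0230).

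To see which members vary together, a sodium channel gene, Scn1a, and a calcium channel gene, Cacna1g, were each taken as an anchor, and the other 37 members past the filter were fitted on its level. With Scn1a, 7 members rose (18.9%) and 5 fell (13.5%), against 26.3% of all 18748 genes called, 15.4% rising and 10.8% falling. The shares of members lie near this background. Cacnb4 rose most (slope 0.23 ± 0.03, limma adjusted p = 2.9e-06, positive in all 5 series). Scn2a (0.13) and Scn3a (0.12), which belong to the same chromosome 3 cluster as Scn1a, Cacna1a, Cacna2d1, Scn8a and Cacna1e also rose. Of the other genes of that cluster, Scn9a (0.08), the nearest to Scn1a, and Scn7a (-0.03) did not pass. Cacnb3 (-0.15 ± 0.03, limma adjusted p = 0.000522), Scn4a, Cacnb1, Scn3b and Cacng3 fell, with slopes of -0.15 to -0.09. Calcium channel beta subunit genes were among both. Cacnb4 was at 43.2 CPM and Cacnb3 at 42.7 in the library of lowest Scn1a (library 63). They were at 80.2 and 20.9 CPM in that of highest (library 67). Cacnb2 (slope 0.07) did not pass, at 22.3 and 46.8 CPM in these libraries. The level of Scn1a itself moved with the dopaminergic (r = -0.51), oligodendrocyte (-0.45), immediate early (-0.39) and neurofilament (0.37) scores. It also moved with the log10 library total (-0.35). The part of these 4 scores in the slopes was not tested. With log10 total as a covariate 5 members rose and 4 fell, and over all genes 2398 rose and 1610 fell. With Xist and Ddx3y as covariates 2 members were called, Cacnb4 and Scn3a, and with identifier series 6, all among the 12. Over all genes 1052 rose and 767 fell with the first, and 2216 and 1394 with the second, in place of 2894 and 2031. With size factors by median of ratios 6 members rose and 7 fell, and over all 18724 genes then tested 3034 rose and 2957 fell. Without library 63, 9 members rose and 3 fell, and 5114 of all genes were called in place of 4925. Cacng3 (limma adjusted p = 0.0575), Cacna2d1 (0.0688) and Cacnb1 (0.0709) then lost their call, and Cacna1b, Scn4b and Cacna1d gained one.

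With Cacna1g, 12 of 37 members rose (32.4%) and 0 fell, against 19% of all 18748 genes called, 7.90% rising and 11.1% falling. The median slope was 0.06 over the members and 0.00 over all genes. The other T-type pores Cacna1h (0.25 ± 0.06, limma adjusted p = 0.0016) and Cacna1i (0.15) rose, as did Cacng2 (0.17 ± 0.03, limma adjusted p = 0.000131), Cacna2d2, Cacna1d, Cacng8, Hcn3, Cacna1a, Cacnb1, Cacnb3, Cacna1c and Cacna1b (0.08 to 0.15). Within series, the slope of Cacna1h was below 0 in series F only (-0.0040) and that of Cacng2 in series B only (-0.18). Library 63 lies at 3.70 SD of Cacna1g and is the highest library for 8 of the 38 channel genes. Without it 8 members were called and 1999 genes over all in place of 3568. With library 44 also left out only 4 were called, Cacna1d, Cacna1h, Cacna2d2 and Cacng2. Over all genes 257 then rose and 425 fell, in place of 1482 and 2086.

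**Figure D5:**
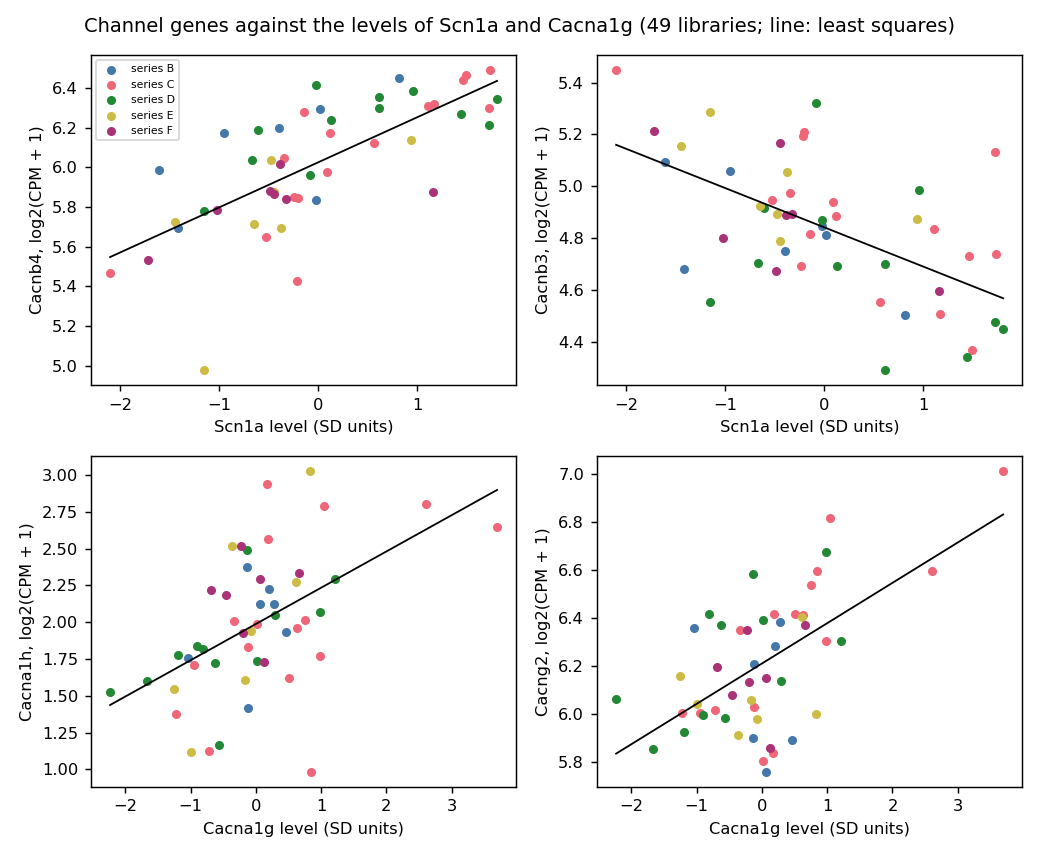
Log2(CPM + 1) of Cacnb4 and Cacnb3 against the level of Scn1a (top) and of Cacna1h and Cacng2 against that of Cacna1g (bottom), both levels in SD units, in 49 libraries coloured by identifier series, with least-squares lines. Cacnb4 goes up and Cacnb3 down with Scn1a, and libraries 63 and 44 lie at the right of the Cacna1g axis.

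The genes outside the channel families whose pattern over the 49 libraries was most like each anchor were found by Pearson's r among 14636 genes, as a description. For Scn1a they were Birc6 (r = 0.77, rho = 0.74), Golga1, Pcf11, Brwd3 and Lgr5, with r of at least 0.74. For Cacna1g they were Scrib (r = 0.81, rho = 0.73), Mbd6, Celf5, Atxn2l and Prrt1, with r of at least 0.79, and the r of Scrib was 0.70 with the 2 most extreme libraries of Cacna1g left out. The libraries share depth and RNA quality as well as cells, and the part of these in the likeness was not tested.

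Along the genome, 20 of the 44 channel genes have another within 1000 kb, in 13 neighbouring pairs on 6 chromosomes. The sodium channel cluster on chromosome 3 holds Scn3a, Scn2a, Scn1a, Scn9a and Scn7a between 70666198 and 71846454, by the table's positions. Cacng6, Cacng8 and Cacng7 lie on chromosome 1 and Cacng1, Cacng4 and Cacng5 on chromosome 10, each group with 1 gene that did not pass. Cacna2d3 and Cacna1d lie 609 kb apart on chromosome 16, and Cacna1c and Cacna2d4 28.9 kb apart on chromosome 4. In the latter pair Cacna1c had an SD of 0.22 log2 units and Cacna2d4 one of 0.36. Cacng4 (0.21) and Cacng5 (0.34), 124 kb apart, differed likewise. With the trend on level removed, Scn4b was at the 93.3rd percentile of spread and its neighbour Scn2b at the 11.5th. On the same measure Cacna2d4 was at the 59.7th and Cacna1c at the 23.4th. Cacng5 was at the 51.8th and Cacng4 at the 23.7th.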

How the data were processed

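Log2 values for 38354 genes make up the deposited table. The authors used kallisto 0.48, per the submitters' processing notes; the genome build and annotation are not given in the sources used here. From the values, each deposited entry is log2 of an estimated count plus 1, with neither depth nor transcript length removed: once back-transformed, 49.8% of values between 0 and 20 lay within 0.01 of a whole number. Values were back-transformed, scaled to CPM by library total and taken as log2(CPM + 1) with a pseudocount of 1. The filter left 18749 genes in the 49 libraries, and the other 43 libraries were not used for results. Slopes and F tests used limma 3.58.1 in R 4.3.3 with a mean trend, over all genes, leaving the genes of a score out of its counts. The immediate early score was fitted with identifier series as covariate. A gap of over 50000 between neighbouring sample identifiers starts a new series; the labels do not explain these series, and series A held no library used here. The 2 libraries whose labels note a corrected identifier followed the same rule as the rest. All 44 members matched a RefSeq symbol (GRCr8 table), and their positions in the deposited table equal an end of that gene there. Gene positions are those of the deposited table, and promoter windows are those of RefSeq.

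The members, the gene lists, the anchors and the tests were chosen with earlier results of these data known. Some members enter the counts but are not reported here by name. Named genes are members, partner lists and the 5 genes of highest r with each anchor. Alternatives were a pseudocount of 0.5, no filter, median-of-ratios scaling, covariates for series, log10 total, RNA state, or Xist and Ddx3y, and leaving out the 2 libraries farthest from the median of a score. The Xist slope, the score correlations (100000 permutations) and leaving out library 45, 62 or 63 were added after seeing the data. Depth sets the counting error: lowest counts per library were 364 for Scn8a and 14 for Scn4b. Procedures were tested on simulated data in which each gene varied independently. Genes vary together in these libraries, so that test does not give the error rate here.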

Additional observations from a re-analysis of the deposited data

How the results depend on the processing

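Of 64 called slopes of channel genes, 15 kept their call under every alternative setting that applied to it (7 or 8), single left-out libraries aside, 49 lost it under at least 1, and 0 reversed. Of the 15, 13 also kept it without library 45, 62 or 63; Hcn2 and Scn8a on the glycinergic score lost it without library 45. With a pseudocount of 0.5 all 64 kept their call. Without the 2 farthest libraries 27 were lost, with median-of-ratios scaling 20, and with Xist and Ddx3y as covariates 20. The cause of these losses was not tested. Counts of called channel genes that moved by over 1.5 times were as follows. With Xist and Ddx3y as covariates, 1 was called for the dopaminergic score in place of 6. Under the same setting 2 were called for the oligodendrocyte score in place of 5, and 2 for Scn1a in place of 12. Over all genes 211 rose and 58 fell for the dopaminergic score, 748 and 333 for oligodendrocyte, and 1052 and 767 for Scn1a. With median-of-ratios scaling, 6 were called for neurofilament in place of 12 and 1 for long minus respiratory genes in place of 9. The same scaling moved the split of rising and falling genes over all genes to 583 and 478 from 1646 and 887 for oligodendrocyte, to 20 and 1 from 27 and 23 for immediate early, to 9 and 4 from 3 and 0 for serotonergic, and to 12 and 4 from 12 and 2 for RMTg inhibitory. With long minus respiratory genes as covariate, 7 were called for neurofilament, 5 rising and 2 falling. With log10 total, 2 were called for oligodendrocyte. With identifier series as covariate, 6 were called for Scn1a. Without that covariate, 4 were called for the immediate early score in place of 0, and over all genes 1032 rose and 1632 fell. Without the 2 farthest libraries, 3 were called for the glycinergic score in place of 8 and 4 for Cacna1g in place of 12. Leaving out library 45, 62 or 63 in turn gave 0 to 10 for the glycinergic score, 8 to 15 for Cacna1g and 0 to 1 for the RMTg inhibitory score.

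Counts over all genes moved too under these settings, single left-out libraries included: 269 to 2385 against 1703 for the dopaminergic score, 34 to 3035 against 2298 for the glycinergic, 869 to 4559 against 3929 for neurofilament, 1061 to 2531 against 2533 for oligodendrocyte, 0 to 71 against 14 for RMTg inhibitory, 1 to 13 against 3 for serotonergic, 13 to 2664 against 50 for immediate early, 1819 to 5991 against 4925 for Scn1a, 682 to 4217 against 3568 for Cacna1g and 105 to 408 against 320 for identifier series. No paired analysis was possible because all samples form 1 group. Hcn4 and Scn4a rest on few counts (median 17 and 25.4 per library), so differences in them are less precise than in genes such as Scn2a (median 3294).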
